A study of Homo sapiens with 4 samples.

Results

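R-loop resolving factors are the enzymes that remove hybrids of RNA and DNA or stop them from forming, and 9 of their genes were examined: RNASEH1, RNASEH2A, RNASEH2B, RNASEH2C, AQR, DHX9, DDX5, TOP1 and XRN2. They were chosen by name for their known roles in the pathway, with earlier results of these data already known, and each was read through the junctions at its annotated introns and splice sites. They are 9 of 17665 genes with reads over annotated introns that belong to 1 gene. An R-loop forms when a nascent RNA pairs with its DNA template behind RNA polymerase and leaves the other DNA strand single. Ribonucleases H cut the RNA of such hybrids, helicases unwind them, topoisomerase I relaxes the negative supercoils that favour them, and XRN2 degrades the RNA that trails a terminating polymerase. Splicing factors that act on the nascent RNA are known to keep R-loops low, and SF3B1, the protein mutated here, is the subunit of the U2 snRNP that holds the branch-point region at the 3′ splice site.

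The study sequenced chromatin-bound RNA of K562, a human erythroleukemia line that the labels call immortalized epithelial cells, in 2 libraries of SF3B1 wild type (WT) and 2 of SF3B1 K700E. Per a treatment text shared by all samples, doxycycline at 1 µg/ml induced the modified allele and cells were taken after 4 days. The labels do not say whether the wild-type cells carry an inducible allele, nor from how many clones the cells came. The RNA was isolated in buffers with 25 µM α-amanitin, an inhibitor of RNA polymerase II, and was depleted of polyadenylated and ribosomal RNA. Per its title, the series links mutant splicing factors to disrupted elongation by RNA polymerase II and to stressed replication. Whether the replicates came from different cultures is not stated, so the p-values here speak only of the spread among these 4 libraries, which could be technical.

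The libraries held 3582592 to 5322414 uniquely mapped junction reads, the highest in SF3B1 K700E 2. Junction counts hold no base calls, so the SF3B1 allele could not be read. Of 12 erythroid and K562 markers 10 had at least 10 reads, with a summed level of 1659 and 2112 counts in 1000000 reads (CPM) in WT against 1444 and 2204 in SF3B1 K700E. Of 12 epithelial markers 4 did (EPCAM, KRT8, KRT18 and KRT19), with summed levels of 483 and 371 against 348 and 443 CPM, and CDH1, CDH3, KRT5, OCLN, ESRP1 and GRHL2 were at 0. Of 8 lymphoid and myeloid markers 3 did, almost all of it PTPRC, a surface phosphatase of blood cells, and the summed level was 987 and 1300 CPM in WT against 1832 and 1628 in SF3B1 K700E. The part of these differences in the results below was not tested. In bulk RNA, fewer cells with a transcript and less RNA per cell cannot be told apart.

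The splice sites shown here are the best covered unannotated acceptors of RNASEH2B and RNASEH1, which took a large share of the reads at their splice site in most libraries. RNASEH2B has an unannotated acceptor (3′ splice site) in intron 5, 1471 nt before the annotated one. Its sequence and that of the annotated acceptor are given from GENCODE 29 (GRCh38, plus strand), as 20 intron bases and 10 exon bases with the last 2 intron bases in capitals, at chr13:50941830-50941859 and chr13:50943301-50943330.
RNASEH2B unannotated acceptor: cctcttttttgttactgtAGtgacatgtcc
RNASEH2B annotated acceptor: agtcttttttttcttttaAGgtaatccaga
Both are pyrimidine-rich, with 15 C or T among the 18 bases before the AG. Downstream of the unannotated acceptor, intron 5 also has an unannotated donor (5′ splice site). Junction counts do not link sites within a read, so joint use of these sites is inferred. The donor is shown with its first 2 intron bases in capitals (chr13:50942045-50942064).
RNASEH2B unannotated donor: ccatcaaaagGTgggaggga
The sites enclose 205 bases, chr13:50941850-50942054, inside the intron between coding exons 5 and 6. Translated in the frame of exon 5, this stretch holds a TGA stop codon that starts at its base 72, shown in capitals (chr13:50941909-50941935).
RNASEH2B stop in the enclosed stretch: tgcctgcagcatTGAcaaccataggct
In RNASEH1 an unannotated acceptor lay 4 bases inside coding exon 6. The line shows 15 bases of exon 5 (chr2:3549058-3549072) and 15 of exon 6 (chr2:3548710-3548724) on the minus strand, with the 4 bases that this acceptor removes in capitals.
RNASEH1 exon 5 to exon 6: agagcggaaattcatGCAGcctgcaaagcc

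Per intron, the 9 genes spanned a wide range of spliced reads. The level of a gene was taken as the median CPM over the introns of its reference transcript, which does not grow with the number of introns, and is given as the mean of the 4 libraries with their range. DDX5 was highest, at 127 CPM per intron (111 to 154). DHX9 followed at 30.9 (23.2 to 40.1) and TOP1 at 12.7 (10.5 to 18.9). XRN2 was at 6.25 (4.89 to 7.22), AQR at 6.17 (3.21 to 8.96), RNASEH2C at 5.42 (3.74 to 7.34), RNASEH2B at 4.69 (3.21 to 6.05), RNASEH2A at 3.91 (3.01 to 4.79) and RNASEH1 at 3.75 (3.12 to 4.29). The libraries of DDX5, DHX9 and TOP1 did not overlap with those of the next gene in the order, whereas those of the lower 6 overlapped with the next of them. The 4 genes of the ribonucleases H had the lowest level in this order, and the helicases DDX5 and DHX9 the highest.

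None of the members passed the test of gene totals. The totals are reads over annotated introns of 1 gene, in CPM scaled by edgeR's TMM factors. Of 8 members tested with edgeR's quasi-likelihood test, 0 passed a Benjamini-Hochberg adjusted p of 0.05 and 0 had an unadjusted p under 0.05; DESeq2 also called 0 of them. Among 10827 genes 0.933% were called in either direction (0.333% higher and 0.6% lower), and 10.1% had an unadjusted p under 0.05. The log2 changes of the 8 members had a median of 0.33, beside 0.00 for all genes tested, whose quartiles were -0.27 and 0.24. The change was positive in 7 of 8 members, against 50.4% of all genes. Both mutant libraries lay above both wild-type libraries in 3 of 8, against 19.4% of all genes, and below them in 0 of 8, against 20.1%.

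**Figure D1:**
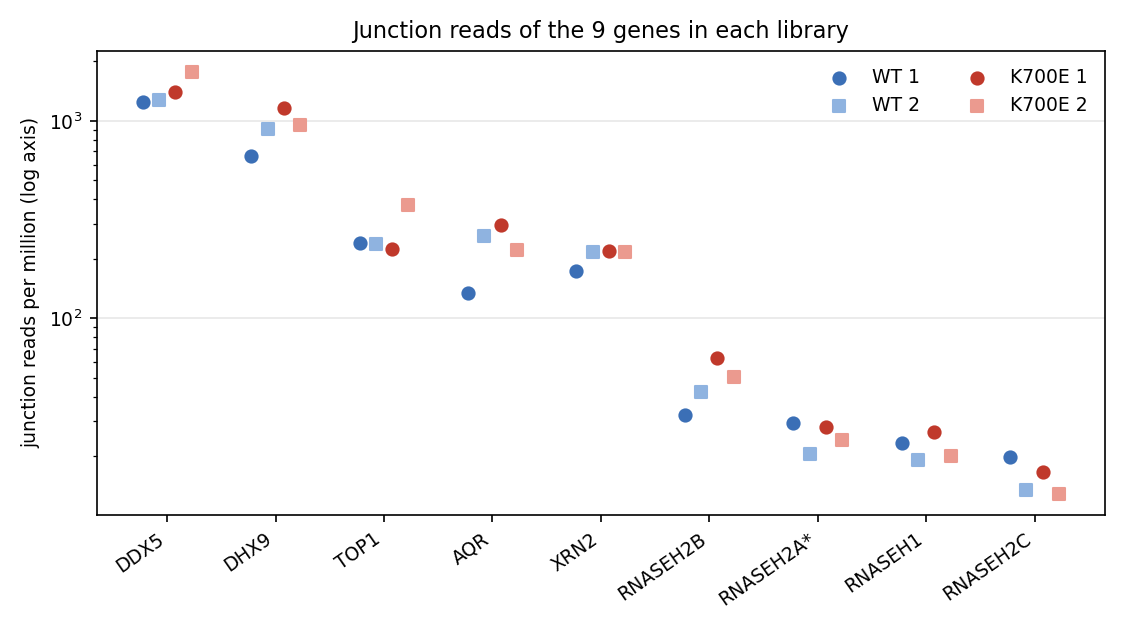
CPM of junction reads (log axis) of the 9 genes in each of the 2 WT and 2 SF3B1 K700E libraries, 1 point per library. Both mutant points lie above both wild-type points in DDX5, DHX9 and RNASEH2B. The asterisk marks RNASEH2A, counted with introns it shares with another gene.

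The ribonucleases H cut the RNA strand of hybrids. RNASEH2B codes for a non-catalytic subunit of ribonuclease H2, which ties the enzyme to the sliding clamp PCNA. The gene (ENSG00000136104.20, chr13:50909678-51024120) had 32.4 and 42.4 CPM in WT and 62.6 and 50.3 in SF3B1 K700E. Both mutant libraries were the higher, and the log2 change was 0.59 ± 0.28 (standard error, edgeR adjusted p 0.516, unadjusted 0.0573). This was the largest change among the members. RNASEH2C, the other non-catalytic subunit (ENSG00000172922.9, chr11:65714005-65720947), had 19.9 and 13.5 CPM in WT and 16.7 and 12.9 in SF3B1 K700E, which overlapped. Its log2 change of -0.18, with a standard error of 0.35, was the only negative one among the 8 (edgeR adjusted p 0.941). It turned to 0.12 without WT 1 and to 0.01 without SF3B1 K700E 2.

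RNASEH2A, the catalytic subunit (ENSG00000104889.6, chr19:12806556-12815201), shares 6 of its 7 introns with the annotated gene THSD8. Its single unshared intron held 5 and 8 reads in WT and 7 and 12 in SF3B1 K700E, too few for the test. With shared introns counted, an alternative chosen after seeing the data, it had 29.4 and 20.5 CPM in WT and 28.1 and 24.1 in SF3B1 K700E. The groups overlapped, and the log2 change was 0.06 ± 0.30 (standard error, edgeR adjusted p 0.985). RNASEH1, the single-chain enzyme of nucleus and mitochondria (ENSG00000171865.9, chr2:3544793-3558616), had 23.2 and 19.2 CPM in WT and 26.5 and 20.0 in SF3B1 K700E. The groups overlapped and the log2 change was 0.13 ± 0.31 (standard error, edgeR adjusted p 0.962), turning to -0.08 without SF3B1 K700E 1.

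The helicases unwind RNA from DNA or from itself. DHX9, which is loaded on nascent transcripts (ENSG00000135829.16, chr1:182839369-182887751), had 663 and 906 CPM in WT and 1164 and 948 in SF3B1 K700E. The groups did not overlap, but WT 2 and SF3B1 K700E 2 lay close together. Its log2 change was 0.43 ± 0.24 (standard error, edgeR adjusted p 0.632), falling to 0.22 without WT 1 and 0.28 without SF3B1 K700E 1 and reaching 0.69 without WT 2. DDX5, a DEAD-box helicase (ENSG00000108654.14, chr17:64499616-64508199), had 1242 and 1274 CPM in WT and 1403 and 1771 in SF3B1 K700E. The wild-type libraries were close to each other and both mutant libraries were higher, with a log2 change of 0.34 and a standard error of 0.22 (edgeR adjusted p 0.709). Without SF3B1 K700E 2 the change was 0.17, and 0.50 without SF3B1 K700E 1. AQR, a helicase of the spliceosome (ENSG00000021776.10, chr15:34851782-34969839), had 134 and 262 CPM in WT and 298 and 222 in SF3B1 K700E. WT 1 alone was low. The log2 change of 0.39, with a standard error of 0.31 (edgeR adjusted p 0.781), was -0.01 without WT 1 and 0.97 without WT 2.

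TOP1 codes for topoisomerase I (ENSG00000198900.5, chr20:41028818-41124487) and had 240 and 238 CPM in WT and 225 and 373 in SF3B1 K700E. Only SF3B1 K700E 2 stood above the other libraries. The log2 change of 0.33, with a standard error of 0.27 (edgeR adjusted p 0.789), was -0.07 without that library and 0.65 without SF3B1 K700E 1. XRN2, the exonuclease of transcription termination (ENSG00000088930.7, chr20:21303304-21389827), had 173 and 217 CPM in WT and 218 and 215 in SF3B1 K700E. WT 1 was low and the remaining values were nearly equal, and the log2 change was 0.15 ± 0.22 (standard error, edgeR adjusted p 0.920), or -0.00 without WT 1.

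**Figure D2:**
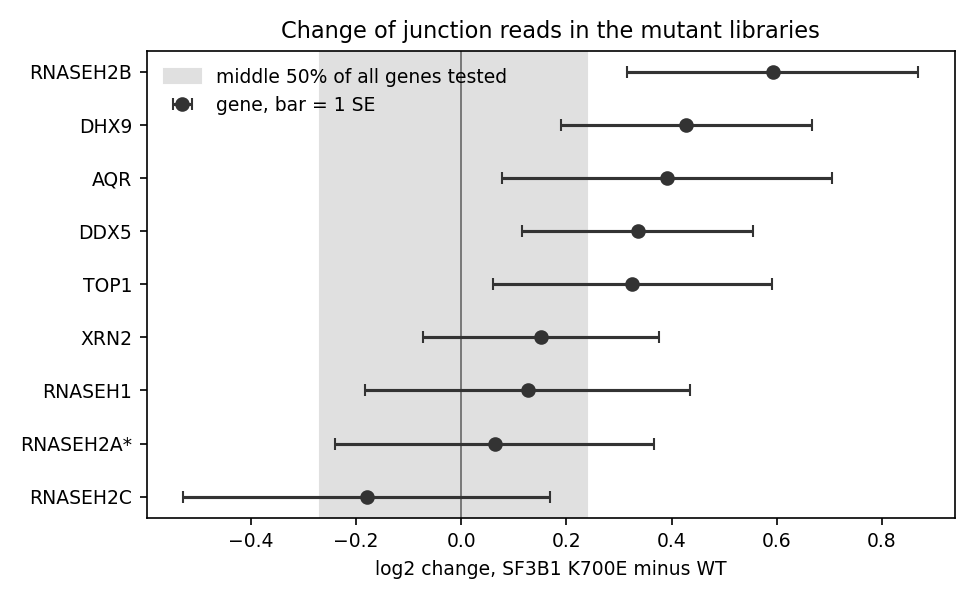
Change of junction reads in SF3B1 K700E against WT (log2) for the 9 genes, with bars of 1 standard error, over the middle 50% of all genes tested (grey). Of the 8 genes in the main test 7 lie above 0, and none passed the test; the asterisk marks RNASEH2A, counted with shared introns.

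Along the genes, no single intron passed the test of its use relative to its gene as a whole. The reference transcripts of the 9 members hold 149 introns, of which 141 were tested for use within the gene. Of these 0 passed (edgeR diffSpliceDGE, lowest adjusted p 1.00), and limma's diffSplice called 0 as well, while 0.011% of 117973 introns of all genes were called. An unadjusted p under 0.05 was seen for 1 of 141 introns, beside 1.57% of all introns. That was intron 4 of RNASEH2B (chr13:50930760-50934884), with 7 and 8 reads in WT and 40 and 29 in SF3B1 K700E. Its log2 change relative to the tested introns of RNASEH2B, itself included, was 1.17 (edgeR diffSpliceDGE unadjusted p 0.0437). In CPM, both mutant libraries exceeded both wild-type libraries in 55 of the 141 introns, against 19% of all introns tested, and lay below both in 1, against 17.1%. Introns of 1 gene share its total, so these counts are no more independent than the gene totals above. Over all 149 introns 57 were higher, 14 of them in DHX9 and 12 in XRN2, and 3 were lower: introns 2 and 5 of RNASEH2A and intron 20 of XRN2.

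RNASEH2B had the largest difference in the share of unannotated reads among the members, through 1 acceptor. From the donor of exon 5, reads ran either to the annotated acceptor of exon 6 or to the unannotated acceptor shown above (chr13:50935000-50941849). The unannotated acceptor had 8 and 7 reads in WT and 32 and 37 in SF3B1 K700E. Its share of the reads from that donor was 38.1% and 43.8% in WT and 60.4% and 56.1% in SF3B1 K700E. The 4 shares did not overlap between the genotypes, but rested on 16 to 66 reads each. The test of this shift did not pass (edgeR diffSpliceDGE adjusted p 1.00, unadjusted 0.303). Its log2 change of 0.54 is relative to all tested reads of the donor, those of this acceptor included. With limma's diffSplice the change was 1.03 (unadjusted p 0.130).

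Scaled by library size, reads into the unannotated acceptor were 2.45 and 2.10 CPM in WT and 8.07 and 7.69 in SF3B1 K700E, 3.47 times as many. Reads to the annotated acceptor of the same intron were 3.97 and 2.71 CPM in WT and 4.79 and 6.03 in SF3B1 K700E, 1.62 times as many. Both acceptors were therefore higher in the mutant libraries on the CPM scale, where neither was tested. Introns 1 to 4 summed to 12.2 and 20.4 CPM in WT and 35.3 and 23.7 in SF3B1 K700E, a ratio of 1.81. Introns 6 to 10 summed to 15.3 and 17.4 CPM against 21.7 and 20.0, a ratio of 1.27. This division of the gene was chosen after its values were seen. Few reads left at the end of the enclosed 205 bases: the unannotated donor had 0 and 1 reads in WT and 1 and 4 in SF3B1 K700E. Another unannotated donor, further into intron 5 (chr13:50942586-50943320), had 1 read, in SF3B1 K700E 2. Averaging the reads into and out of the 205 bases gave 23.5% and 30.8% in WT and 46.5% and 41.4% in SF3B1 K700E. Reads in were 8 and 7 in WT and 32 and 37 in SF3B1 K700E, far above those out. The average is therefore not an inclusion level of an exon.

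**Figure D3:**
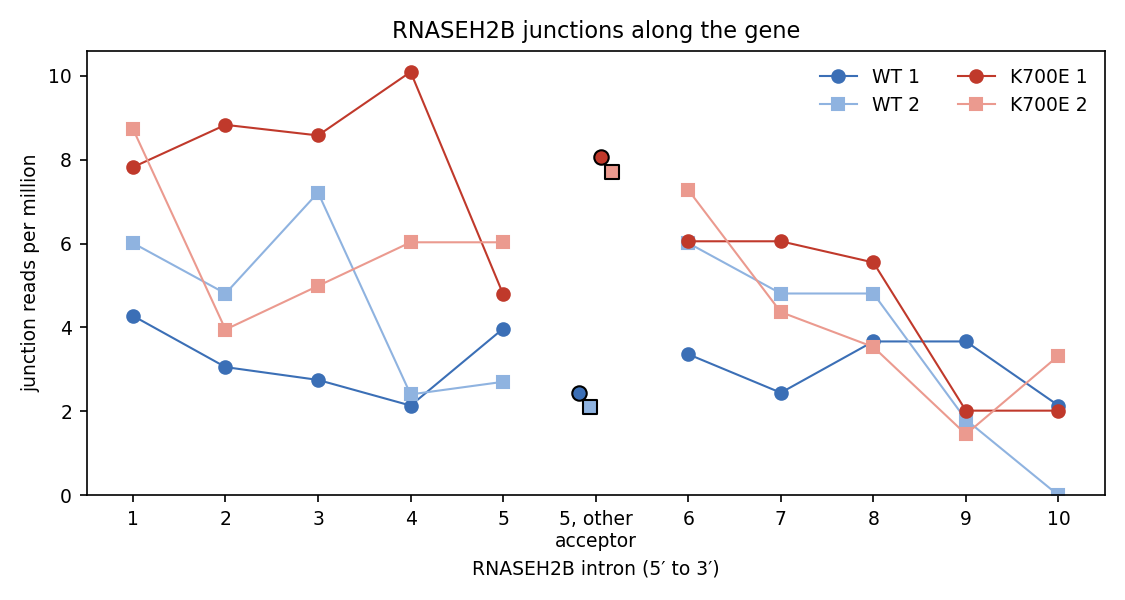
CPM of junction reads over each intron of RNASEH2B in 5′ to 3′ order, 1 line per library, with the unannotated acceptor of intron 5 as outlined points. At that acceptor both mutant libraries (8.07 and 7.69) lie above both wild-type libraries (2.45 and 2.10).

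In all, the members had 204 alternative junctions, meaning junctions other than the introns of the reference transcript. Of these, 168 were unannotated, with 733 reads together, and 84 of the 168 had a single read. Exon skipping made up 43 of the 204, an alternative acceptor 70 and an alternative donor 65. Only 25 had the reads for a test, and 0 of these passed with edgeR diffSpliceDGE or with limma. Over all genes, 0.137% of 23366 junctions were called for acceptor use and 0.0087% of 22976 for donor use. Each of the 25 was read from 1 of these 2 tests. With the introns of the reference transcripts added, acceptor use covered 29 member junctions and donor use 31. An unadjusted edgeR p under 0.05 was seen for 1 in each test. Among the 25 alternative junctions it was seen for 1, in acceptor use. Of all junctions tested, 3.17% had such a p for acceptor use and 2.18% for donor use.

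That alternative junction skipped exon 12 of DDX5, a coding exon of 225 nt, a multiple of 3 (chr17:64500327-64502009). It had 0 and 0 reads in WT and 7 and 6 in SF3B1 K700E. Its share of reads from the donor of exon 11 was 0% in both WT libraries and 6.36% and 3.30% in SF3B1 K700E. Over the group, 13 of 292 mutant reads took it, 4.45%, whereas 0 of 108 wild-type reads allow a share of up to 2.78%. The mutant share was 1.60 times this limit, or 1.19 times without SF3B1 K700E 1. These ratios leave out the counting error of the mutant reads, so they are no lower bound of a difference. Without WT 1 or WT 2 the limit rose to 5.08% or 6.12%, above the mutant share. The test did not pass (edgeR diffSpliceDGE adjusted p 1.00, unadjusted 0.0175), nor with limma (unadjusted p 0.174). The limit of 3 counts and the intervals cover counting error only.

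At the same place in DDX5, an annotated donor inside intron 11 (chr17:64500774-64501056), joined to exon 12, had a lower share in both mutant libraries. It had 18 and 18 reads in WT and 11 and 26 in SF3B1 K700E. Its share of the reads entering exon 12 was 28.1% and 25.7% in WT and 10.7% and 15.9% in SF3B1 K700E, with no overlap. Reads over the whole of intron 11, which enter the same exon, were 14.1 and 15.6 CPM in WT and 23.2 and 28.5 in SF3B1 K700E. A lower share of this donor is therefore not by itself a lower level of its reads. The test did not pass (log2 change -0.95 relative to all tested reads entering exon 12, edgeR diffSpliceDGE unadjusted p 0.0594, adjusted 1.00). It did not pass with limma's diffSplice either (log2 change -1.25, unadjusted p 0.0291, adjusted 0.995). Otherwise the best covered unannotated acceptors of DDX5 were a pair with overlapping shares or few reads. One inside intron 11 (chr17:64501144-64502009) took 2.04% and 10.2% of its donor's reads in WT and 5.45% and 9.34% in SF3B1 K700E, and one 4 nt past the acceptor of intron 2 (chr17:64504315-64504676) took 0.153% to 0.967%. The latter rested on 8 of 1060 wild-type and 8 of 2074 mutant reads.

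In RNASEH1 the acceptor 4 nt inside exon 6 (chr2:3548721-3549057) had 6 and 0 reads in WT and 6 and 8 in SF3B1 K700E. Its share was 42.9% and 0% in WT and 42.9% and 38.1% in SF3B1 K700E. WT 2 stood apart from the other libraries, and the groups overlapped (edgeR diffSpliceDGE unadjusted p 0.710). Over all libraries 20 of 54 reads took the acceptor, which drops 4 coding bases. Skipping of exon 2, a coding exon of 116 nt (chr2:3552309-3558132), took 22.2% and 16.7% of the donor's reads in WT and 22.7% and 27.3% in SF3B1 K700E, on 2 to 6 reads each (unadjusted p 0.728). The next junction, a donor of intron 3 (chr2:3550473-3552171), had 2 reads, both in WT 1. RNASEH2A and RNASEH2C showed almost no unannotated junctions: 2 in each gene, with 3 and 2 reads in all. In RNASEH2A they were donors of intron 1 (chr19:12806740-12807007) and intron 2 (chr19:12807091-12807205), and in RNASEH2C they touched no splice site of the reference transcript, at chr11:65715318-65715810 and chr11:65715318-65716424. Another RNASEH2B junction, skipping exon 8 (chr13:50945533-50949462), had 2 reads, both in SF3B1 K700E 1.

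DHX9 carried an exon that its only protein-coding transcript lacks. The exon, 137 nt at chr1:182855577-182855713 in intron 6, is annotated in a transcript without a coding sequence. It was included in 78.9% and 68.8% of reads in WT and 75.7% and 72.9% in SF3B1 K700E, averaging the reads on its 2 sides. The genotypes overlapped, so most of the DHX9 reads across this intron held the exon in each library. Read in the frame of exon 6, the exon meets a TGA stop that starts at its base 41, in capitals here (GENCODE 29, GRCh38, plus strand, chr1:182855605-182855631).
DHX9 stop in the extra exon: tttaagcctggcTGAgaaacatactgg
A donor 15 nt past the end of that exon (chr1:182855729-182856531) was the best covered unannotated junction of DHX9, with 1 and 5 reads in WT and 8 and 13 in SF3B1 K700E, or 1.37% and 4.59% against 4.28% and 7.93% (unadjusted p 0.305). A junction from the neighbouring gene NPL into exon 2 of DHX9 (chr1:182825821-182842544) had 3 and 2 reads in WT and 2 and 17 in SF3B1 K700E, so that SF3B1 K700E 2 stood alone (unadjusted p 0.126). Skipping of exons 2 and 3 (chr1:182839457-182852232) had 2 and 6 reads in WT and 8 and 7 in SF3B1 K700E. None of these 3 passed the test.

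Mutant SF3B1 is known for using acceptors a short way upstream of the annotated one. Of the members' 6 unannotated acceptors 10 to 30 nt upstream, only 1 in XRN2 had shares that did not overlap. How often such sites in other genes do not overlap was not counted, so this is no result about the members. The XRN2 site lay 24 nt upstream in intron 13 (chr20:21334186-21339019). It had 0 and 0 reads in WT and 3 and 1 in SF3B1 K700E, shares of 0% and 0% against 8.82% and 1.79%. The 4 of 90 mutant reads, 4.44%, were under the limit of 4.55% that 0 of 66 wild-type reads allow, so a difference was not detectable at this depth. In intron 16 of XRN2, unannotated sites enclose 88 nt (chr20:21344854-21344941), and the acceptor that opens them (chr20:21344209-21344853) was the best covered of the gene. Reads in were 3 and 6 in WT and 11 and 4 in SF3B1 K700E, and reads out 0 and 1 against 4 and 3. Averaging both sides gave 11.1% and 17.9% in WT and 26.3% and 13.7% in SF3B1 K700E. With fewer reads out than in, the average is not an inclusion level of an exon. Skipping of exon 4 (chr20:21326602-21330480) took 7.14% and 17.6% in WT and 9.76% and 11.3% in SF3B1 K700E. A donor in intron 16 (chr20:21345888-21346414) had 3 and 1 reads against 6 and 4. The shares overlapped between the genotypes in each of these 3.

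**Figure D4:**
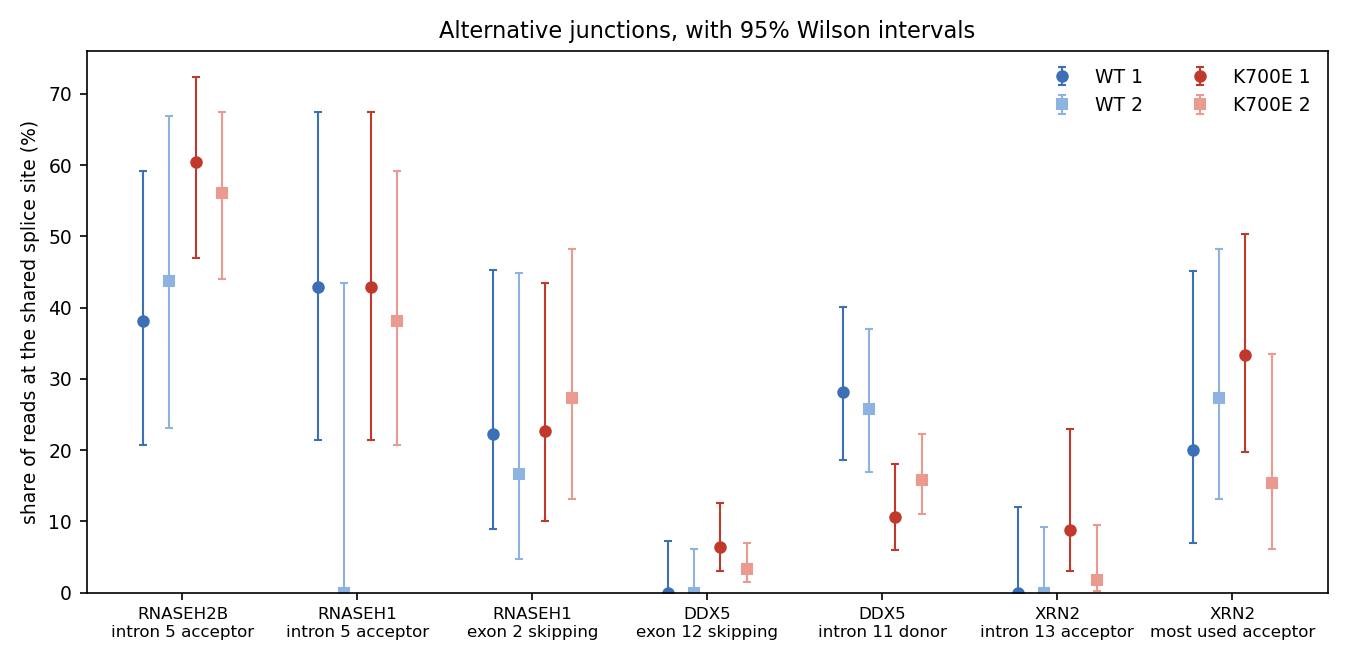
Share of reads (%) that took each of 7 alternative junctions among the reads at the shared splice site, 1 point per library, with 95% Wilson intervals that cover counting error only. In RNASEH2B the mutant libraries (60.4% and 56.1%) lie above the wild-type libraries (38.1% and 43.8%), but the intervals overlap.

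In TOP1 skipping of exon 4, a coding exon of 124 nt (chr20:41061491-41077581), took 5.45% and 5.63% of the donor's reads in WT and 2.82% and 4.29% in SF3B1 K700E, on 2 to 6 reads each (unadjusted p 0.571). In intron 8, unannotated sites enclose 107 nt (chr20:41092273-41092379), whose donor was the best covered in the gene (chr20:41092380-41092471). Reads in were 1 and 1 in WT and 2 and 1 in SF3B1 K700E, and reads out 2 and 4 against 3 and 8. Averaging both sides gave 4.48% and 6.67% in WT and 6.33% and 4.23% in SF3B1 K700E. With sides this unequal, the average is not an inclusion level of an exon. A donor in intron 9 (chr20:41097014-41097219) had 1 and 5 reads against 1 and 8, which is 6.25% and 21.7% of the reads at its acceptor in WT and 3.57% and 13.8% in SF3B1 K700E. In AQR the best covered were an acceptor in intron 4 (chr15:34951906-34952884) with 2 and 0 reads in WT and 5 and 4 in SF3B1 K700E (15.4% and 0% against 10.6% and 10.8%), a donor in intron 5 (chr15:34944429-34946145) with 2 reads in each library, and an acceptor in intron 24 (chr15:34888690-34890214) with 1 and 1 against 2 and 3. No share of an AQR junction reached the named difference of 5 percentage points without overlap. These TOP1 and AQR junctions rested on 0 to 8 reads per library.

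Over all members, unannotated acceptors 10 to 30 nt upstream of an annotated one were 6 sites, in XRN2, AQR and DHX9. Per 10000 junction reads of the members they had 2.35 and 6.92 in WT and 4.32 and 3.37 in SF3B1 K700E, from 2, 7, 6 and 6 reads, and the groups overlapped. In all other genes the 4091 such sites had 3.92 and 4.50 per 10000 reads in WT and 11.5 and 9.61 in SF3B1 K700E. Both mutant libraries were thus above both wild-type libraries in the other genes and not in the members, whose counts are small. The difference between members and other genes was not tested.

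Unannotated junctions took a slightly larger share of the members' reads in the mutant libraries. The pooled share was 1.21% and 1.32% in WT and 1.56% and 1.57% in SF3B1 K700E (exact permutation test over 6 assignments, 2-sided p 0.333, the smallest it can give). In all other genes it was 2.77% and 2.79% in WT and 3.26% and 2.96% in SF3B1 K700E. RNASEH2B contributed most, with 6.84% and 5.33% in WT against 12.9% and 16.0% in SF3B1 K700E. Without RNASEH2B, an alternative chosen after seeing the data, the pooled share was 1.13% and 1.25% in WT and 1.32% and 1.33% in SF3B1 K700E. DDX5 was higher too, at 0.270% and 0.235% in WT against 0.483% and 0.619%. TOP1 was lower, at 1.88% and 2.35% against 1.76% and 1.59%, on 15 and 19 unannotated reads in WT and 16 and 29 in SF3B1 K700E. RNASEH2C had 1 and 1 unannotated reads in WT and 0 in both mutant libraries. In RNASEH2B, DDX5, TOP1 and RNASEH2C the Wilson intervals of WT 1 and SF3B1 K700E 1 overlapped. Those of WT 2 and SF3B1 K700E 2 overlapped in TOP1 and RNASEH2C. They did not in RNASEH2B (2.73% to 10.2% against 12.3% to 20.7%) or DDX5 (0.128% to 0.433% against 0.473% to 0.808%). These intervals cover counting error only. RNASEH1, RNASEH2A, AQR, DHX9 and XRN2 overlapped between the genotypes. The number of all genes whose shares do not overlap was not counted, so the direction in single members is no result about them.

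The balance of reads along a gene was measured as the log2 ratio of junction reads in the last of 3 equal parts (the 3′ end) to those in the first (the 5′ end), with 0.5 added to each. It was used for the 4 members of at least 20 kb with reads in both parts. AQR had -0.30 and -0.48 in WT and -0.65 and -0.92 in SF3B1 K700E, lower in both mutant libraries. TOP1 had 1.87 and 1.57 in WT and 2.59 and 1.93 in SF3B1 K700E, higher in both. DHX9 had 0.37 and 0.44 against 0.53 and 0.45, also higher in both, but with WT 2 and SF3B1 K700E 2 nearly equal. XRN2 had -1.01 and -1.23 against -1.01 and -1.16, which overlapped. How many of all long genes do not overlap was not counted. The direction differed between the 4 genes. Their median difference was 0.06, and ranged from 0.0030 without SF3B1 K700E 1 to 0.117 without SF3B1 K700E 2. The median over 7388 genes of at least 20 kb was 0.85 and 0.79 in WT and 0.81 and 0.95 in SF3B1 K700E. With 2 libraries per genotype no exact test of these values can go below p 0.333.

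**Figure D5:**
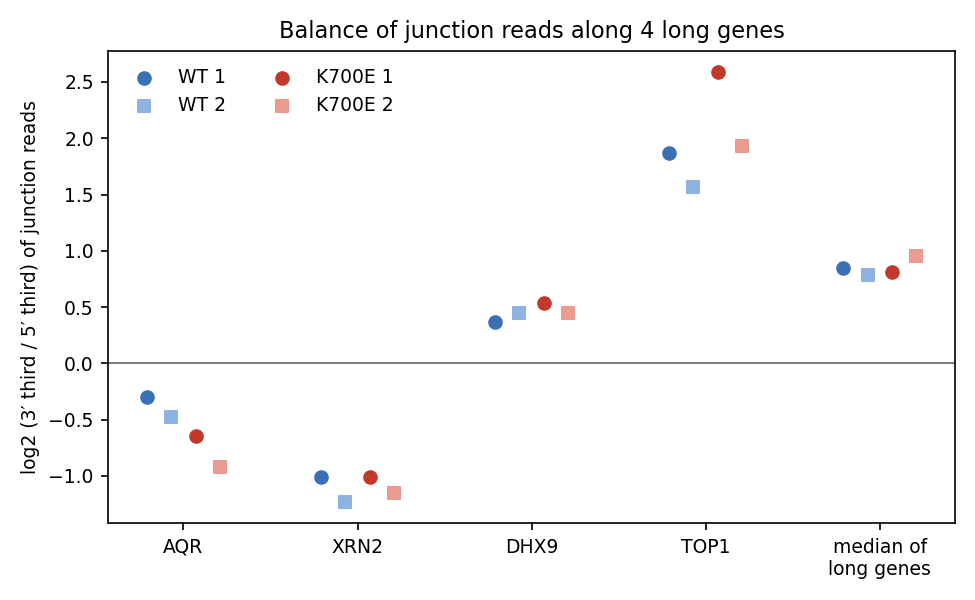
Log2 ratio of junction reads in the last of 3 equal parts to the first (3′ to 5′) of AQR, XRN2, DHX9 and TOP1 and the median of genes of at least 20 kb, 1 point per library. AQR is lower (-0.65 and -0.92 against -0.30 and -0.48) in both mutant libraries. TOP1 and, by a small margin, DHX9 are higher in both, while XRN2 overlaps.

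Of 41 other genes known to act on R-loops (helicases, topoisomerases, Fanconi and BRCA proteins, the THO export complex, replication protein A and others), all 41 were tested and 0 passed (edgeR, lowest adjusted p 0.235). An unadjusted p under 0.05 was seen for 0 with a positive and 2 with a negative change. Their median log2 change was 0.14, with 25 positive, 7 higher and 7 lower in both mutant libraries, against the 19.4% and 20.1% of all genes. The lowest changes were those of FANCD2, a Fanconi anemia protein that marks stalled forks, with 1548 and 1805 CPM in WT and 1127 and 916 in SF3B1 K700E (log2 change -0.72), and of the helicase DDX21, with 369 and 378 against 225 and 268 CPM (log2 change -0.60). PIF1, a helicase, followed at -0.51. The highest were SAMHD1, a dNTP hydrolase, at 1.30 with overlapping groups, THOC3 at 0.80 and DDX39B at 0.41, each under 20 CPM in every library.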

How the data were processed

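Chromatin-bound RNA of 4 K562 libraries was read through deposited tables of counts of reads over each splice junction. Per the run logs and the submitters' processing notes, the authors aligned reads with STAR 2.7.10a to human GRCh38 (hg38). The deposited counts are not normalized; the overhang per junction is another deposited column, used in 1 alternative. The kit's strand is not given in the sources used here, so strand came from the splice motif. Unspliced RNA was not analysed here.

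Here, uniquely mapped junction reads were assigned to genes with GENCODE 29. Reads over introns of 1 gene were summed and tested with edgeR 4.0.16 (R 4.3.3), quasi-likelihood, TMM and Benjamini-Hochberg at 0.05; 3.98% of annotated reads lay over introns of several genes. Junctions with at least 10 reads were tested within their donor, acceptor or gene with diffSpliceDGE. Its log2 change is relative to all tested reads of that donor, acceptor or gene, the junction's own included. DESeq2 1.42.0 and limma 3.58.1 were alternatives. A standard error is the absolute log2 change over the square root of F. Shares have 95% Wilson intervals. The edgeR fits of gene totals and of acceptor use were tested on simulated data, and the other fits were not. In gene totals, 8% of simulated 2-fold changes and 82% of 4-fold changes were recovered. In acceptor use, 16.5% of simulated 8-fold changes were recovered. A test not passed here therefore does not show that a member was unchanged.

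All members were named, with each junction past a test, the 3 unannotated junctions with most reads per member, and those whose shares did not overlap and differed by at least 5 percentage points on 20 reads per library. Of the other R-loop genes, those that passed and the 3 highest and 3 lowest changes were named. Members and lists were chosen with earlier results of these data known.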

Additional observations from a re-analysis of the deposited data

How the results depend on the processing

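No member gene or junction passed a test under any alternative run. Among all genes the main test called 101 genes; DESeq2 called 217, and leaving out 1 library gave 0 (without SF3B1 K700E 2) to 317 (without WT 2). Junctions called for acceptor use were 32, or 15 with limma, and 6 to 16 with 1 library left out. Donor use had 2, or 0 with multiply mapped reads added and 0 with any library left out. Intron use had 13, or 6 with limma, 5 at a minimum of 20 reads, and 0 to 6 with 1 library left out. With the replicate number as a block, 19 junctions were called for acceptor use, 0 for donor use and 2 introns. The numbers were not shown to pair the libraries, since same-numbered libraries deviated with r = -0.43. The crossed replicate block, added after seeing the data, called 460 genes. In that edgeR fit 0 of 8 members passed and 3 had an unadjusted p under 0.05, against 0 in the main fit. Of all 10827 genes, 769 had such a p with a positive change and 1074 with a negative one.

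The members' log2 changes turned sign in some fits that left out 1 library. They ranged from -0.080 (without SF3B1 K700E 1) to 0.33 in RNASEH1, from -0.41 to 0.12 (without WT 1) in RNASEH2C, which was also 0.01 without SF3B1 K700E 2, from -0.0106 (without WT 1) to 0.97 in AQR, from -0.075 (without SF3B1 K700E 2) to 0.65 in TOP1, and from -0.00075 (without WT 1) to 0.35 in XRN2. With no change of sign they ranged from 0.22 to 0.69 in DHX9, 0.17 to 0.50 in DDX5 and 0.41 to 0.82 in RNASEH2B. The cause was not tested. The difference in unannotated share was 0.303 percentage points, 0.252 to 0.355 with 1 library left out and 0.129 without RNASEH2B. The median difference in the 3′ to 5′ ratio was 0.06, 0.0030 to 0.117 with 1 library left out, and 0.018 with the gene in 2 equal parts. Of 116 alternatives for the members' log2 changes and for 4 tested junctions and introns, 110 kept direction and call. For 25 junction shares, 106 of 125 alternatives kept the sign of the difference and 19, in 16 junctions, did not; 30 moved by more than the spread between replicates. Depth limits these shares, since many rest on a few reads per library.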
